A study of Homo sapiens with 6 samples.

Results

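The aminoacyl-tRNA synthetase genes were followed in Raji cells, a Burkitt's lymphoma cell line of germinal centre origin, with and without raised IRF4. They were taken by symbol through their Entrez identifiers and made up 35 of the 23459 genes in the count table. Of these, 18 encode cytosolic enzymes, 16 encode mitochondrial enzymes (symbols ending in 2), and WARS1, the cytosolic tryptophan gene known to respond to interferon, was kept apart. All 35 passed the filter on low counts, and the lowest count of any member in any library was 440. The choice used no measured value of these libraries, but earlier results of the same data were known when it was made.

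RNA was sequenced from 3 control and 3 IRF4-overexpressing libraries. All cells of both groups were infected with lentivirus for 5 days and then kept for 7 days in puromycin at 3 µg/ml. The control virus was the empty vector and the other carried human IRF4 cDNA, so both groups share infection and drug selection. The labels do not say whether replicates were separate infections, so p-values here cover only library-to-library spread, possibly technical. IRF4 acts in activated B cells and in their turn to plasma cells, and the comparison asks what more of it does in a line of germinal centre type. These are bulk libraries, so fewer cells expressing a gene and less RNA per cell cannot be told apart.

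Totals were 27681979 to 46210702 counts per library. Levels are given as CPM, the counts-per-million scale, after trimmed-mean (TMM) scaling of library sizes. IRF4 matched the labels, with 1.02, 1.38 and 1.37 CPM in controls against 150.0, 120.5 and 125 CPM in the other group. The count does not separate the introduced cDNA from the endogenous gene. The 7 B cell markers checked summed to 4514 to 5556 CPM, against 0.335 to 0.767 for 5 T cell, 1.18 to 4.80 for 5 myeloid and 0.0996 to 0.837 for 6 epithelial and kidney markers. CD2, FCGR1A, MPO, EPCAM, KRT18 and PAX8 had no count in any library. The myeloid sum was 1.22 ± 0.0678 CPM in controls and 3.16 ± 1.42 CPM with IRF4 (SD, n = 3 each), and its part in the results was not tested. Most of that rise was CSF1R, at a mean of 0.427 CPM in controls and 2.22 CPM with IRF4 (4.07 in replicate 1). CD14 and LYZ overlapped between the groups. Libraries of the same group differed along 1 shared axis, which held 74.3% of the variance around the group means. Control replicate 1 and IRF4-overexpressing replicates 2 and 3 lay on its first side, and control replicates 2 and 3 and IRF4-overexpressing replicate 1 on its second side. This split touches many members and is given beside their values.

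Each synthetase joins an amino acid to its matching tRNAs, which the ribosome then uses to read codons. Most amino acids have a nuclear gene for the cytosolic enzyme and a separate nuclear gene for the mitochondrial one. GARS1 and KARS1 each serve both compartments, EPRS1 joins 2 activities in one protein, and 2 genes, FARSA and FARSB, form the cytosolic phenylalanine enzyme. Several cytosolic enzymes are held with scaffold proteins in a multisynthetase complex. Many cytosolic synthetase genes are known targets of ATF4, the transcription factor of amino acid shortage. WARS1 stands out because interferon gamma is known to induce it strongly.

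The promoter sequences below are shown because these 2 known routes of control, interferon and ATF4, run through short motifs at the gene's start. Each is the 250 bases before a RefSeq start (GRCh38.p14), read 5′ to 3′ on the gene's strand, with the motif named for each gene in capitals. The motifs searched on both strands were the interferon-stimulated response element (ISRE, GAAA and GAAA with any 2 bases between them), the gamma-activated site (GAS, TTCNNNGAA, which reads the same on both strands), the ATF4 element (CARE, TGATGNAA) and the composite site of ETS factors and IRF4 (EICE, GGAA and GAAA with any 2 bases between them). WARS1 holds an ISRE and a GAS, and GBP1, an interferon-induced gene that rose here, holds an ISRE. GARS1, AARS1 and IARS1 hold a CARE, as does ASNS, the asparagine synthetase gene that fell here.
WARS1, chr14:100375348-100375597, minus strand: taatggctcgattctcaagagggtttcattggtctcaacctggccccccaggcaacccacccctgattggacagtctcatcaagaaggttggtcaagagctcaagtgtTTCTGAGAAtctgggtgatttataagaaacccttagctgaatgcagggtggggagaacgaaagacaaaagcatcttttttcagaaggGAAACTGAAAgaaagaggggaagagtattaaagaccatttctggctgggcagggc
GBP1, chr1:89065209-89065458, minus strand: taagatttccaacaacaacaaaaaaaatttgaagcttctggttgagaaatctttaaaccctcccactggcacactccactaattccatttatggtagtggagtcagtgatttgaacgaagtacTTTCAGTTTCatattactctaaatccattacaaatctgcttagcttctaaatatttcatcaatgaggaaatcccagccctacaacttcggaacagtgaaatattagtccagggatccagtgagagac
GARS1, chr7:30594628-30594877, plus strand: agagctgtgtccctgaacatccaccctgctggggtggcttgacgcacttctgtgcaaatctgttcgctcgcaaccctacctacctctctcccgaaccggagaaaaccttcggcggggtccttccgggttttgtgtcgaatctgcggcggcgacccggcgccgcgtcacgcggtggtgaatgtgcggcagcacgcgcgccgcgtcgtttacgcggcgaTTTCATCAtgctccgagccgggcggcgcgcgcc
AARS1, chr16:70289507-70289756, minus strand: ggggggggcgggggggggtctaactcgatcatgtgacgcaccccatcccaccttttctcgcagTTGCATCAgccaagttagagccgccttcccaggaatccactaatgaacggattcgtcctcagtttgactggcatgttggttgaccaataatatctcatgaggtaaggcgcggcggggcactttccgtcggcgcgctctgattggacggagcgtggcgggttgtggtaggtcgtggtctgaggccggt
IARS1, chr9:92293698-92293947, minus strand: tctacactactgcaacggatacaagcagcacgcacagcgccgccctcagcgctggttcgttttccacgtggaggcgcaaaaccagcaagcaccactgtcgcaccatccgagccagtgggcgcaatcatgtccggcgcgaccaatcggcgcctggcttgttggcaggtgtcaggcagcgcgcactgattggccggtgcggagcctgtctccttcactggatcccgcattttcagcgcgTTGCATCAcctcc
ASNS, chr7:97872409-97872658, minus strand: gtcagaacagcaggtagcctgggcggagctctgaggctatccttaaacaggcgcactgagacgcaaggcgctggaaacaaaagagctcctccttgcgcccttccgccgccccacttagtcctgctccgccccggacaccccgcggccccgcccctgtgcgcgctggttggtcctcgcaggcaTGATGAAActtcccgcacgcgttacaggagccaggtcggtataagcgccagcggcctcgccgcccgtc

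Windows were found for 30 of the 35 members. LARS1, VARS1, YARS1, AARS2 and VARS2 had none. The WARS1 ISRE begins 55 bases before the start and its GAS 142 bases before. The CARE begins 33, 187 and 13 bases before the start of GARS1, AARS1 and IARS1. An ISRE lay in 2 member genes (WARS1 and EARS2), a GAS in 4 (WARS1, TARS1, PARS2 and WARS2), a CARE in 4 (AARS1, GARS1, IARS1 and YARS2) and an EICE in 0. Among all 35116 windows of this length, 3.02%, 6.57%, 3.14% and 2.41% held an ISRE, GAS, CARE and EICE. Counted by gene, as for the members, the shares were 3.71%, 8.09%, 3.89% and 2.99% of 27305 genes. No motif match overlapped another in the windows printed, although GBP1 also holds a CARE. A match is a description of letters and not a measured binding site.

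Across the family, no synthetase gene passed the test between the groups, and most differences were small. By edgeR's quasi-likelihood test with Benjamini-Hochberg adjustment, 0 of 35 members were higher and 0 lower at an adjusted p under 0.05. The background was 2.98% of all 12079 genes tested called higher and 0.182% called lower, so a low count is also what the table as a whole gives for falls. At an unadjusted p under 0.05, 0 members were higher, against 11.3% of all genes, and 6 were lower, against 8.18%. These 6 were GARS1, YARS1, QARS1, FARSB, LARS2 and IARS2. DESeq2 called 1 member lower (GARS1) and 0 higher, against 1.45% and 4.78% of all genes, and limma-voom called 0 in either direction, against 0.182% and 2.81%. With the replicate number as a block, 0 members were called, against 0.0248% of all genes higher and 0.0% lower. The 95% interval of the change lay within 1.5-fold either way for 27 of the 35 members. For the other 8 the intervals were wider, and the bounds over all members ran from 0.347 to 1.60 of the control level. In simulated data the test called 4.5% of true 1.5-fold changes, so not passing does not mean no change.

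**Figure D1:**
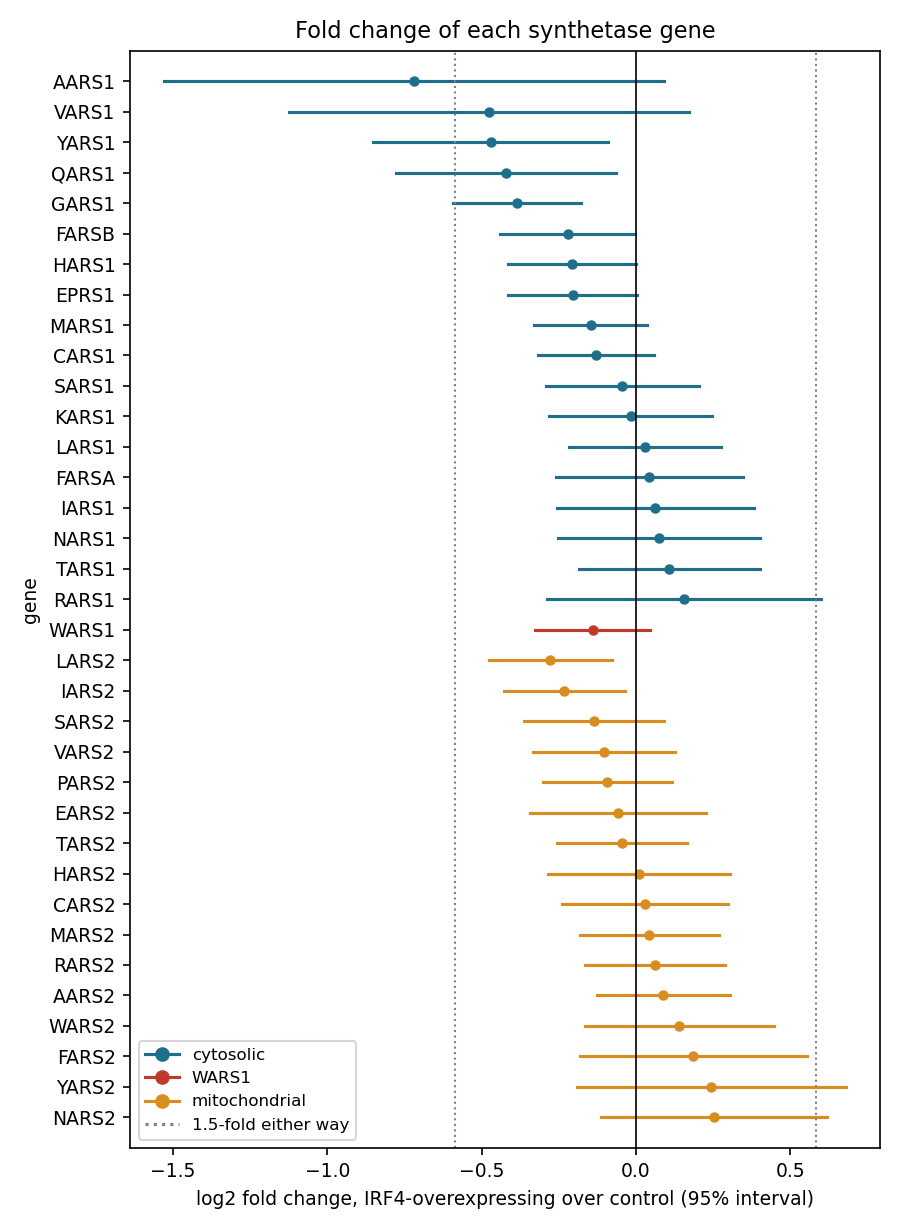
Fold change of each of the 35 synthetase genes in IRF4-overexpressing over control libraries (log2, x axis), with points for the fitted values, bars for 95% intervals and dotted lines at 1.5-fold. All values lie between -0.72 (AARS1) and 0.25 (NARS2), and the intervals of AARS1, VARS1 and YARS1 are among the widest.

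WARS1 did not pass the test and was slightly lower with IRF4, while most of the interferon-induced genes listed rose. Its control libraries had 189, 199.5 and 193.5 CPM. Its IRF4-overexpressing libraries had 179.7, 179 and 169.8 CPM, in replicate order as in all lists here. All 3 IRF4-overexpressing libraries were below all 3 controls, as for 11.9% of all genes tested and 23.6% of those with means of 100 to 1000 CPM. The means were 194 ± 5.17 and 176 ± 5.50 CPM (SD, n = 3 each), with a log2 fold change of -0.14 (SE 0.08) and an edgeR adjusted p of 0.339. The 95% interval ran from 0.798 to 1.03 of the control level. The value was steady across the library axis, at -0.13 within its first side and -0.09 within its second side.

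In the same libraries, 8 of 11 tested genes of an interferon gamma list rose by edgeR and none fell, against 2.98% and 0.182% of all genes. Leaving out single libraries gave 4 to 8 that rose, with 4 when control replicate 1 was left out. The median over the list was 2.54 on the log2 scale, against 0.01 over all genes tested. GBP2 and GBP5, with 0 to 3 counts in each control, passed the filter on low counts only through the IRF4-overexpressing group. With the filter at 1 CPM in 3 libraries, which drops both, 6 of 9 genes rose and the median was 0.74. That count still holds GBP1 and GBP4, which were under 1 CPM in every control and passed this filter only through the IRF4-overexpressing group. CXCL9, CXCL10, TAP1 and IRF1, which also rose, were above 1 CPM in every library. GBP1 and GBP4, interferon-induced GTPases, rose 5.83-fold and 7.13-fold from control means of 0.790 and 0.520 CPM. CXCL9, a chemokine gene, was at 3.09, 3.24 and 4.65 CPM in the controls and at 42.7, 32.6 and 34.9 CPM with IRF4. That is 10.0-fold higher (95% interval 7.17 to 14.0, edgeR adjusted p = 8.94e-04), and CXCL10, another chemokine gene, rose 8.87-fold. These groups did not overlap, and the interval of WARS1 lies below that of each of these 4 genes. TAP1 and IRF1, at means of 101 and 34.8 CPM in the controls, rose less, by 1.66-fold and 1.52-fold. PSMB9, ICAM1 and SOCS1 did not pass, with log2 fold changes of 0.03, 0.34 and 0.17, and IDO1 was too weak to be tested. The WARS1 interval therefore also overlaps those of some other listed genes, such as PSMB9.

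**Figure D2:**
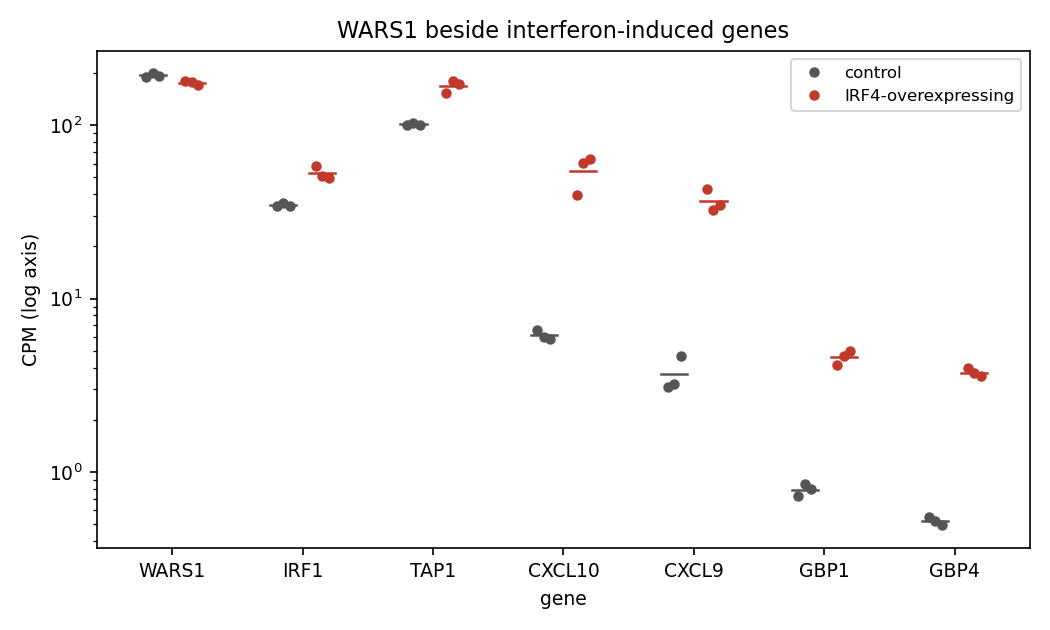
CPM (log axis) of WARS1 and 6 interferon-induced genes in 3 control (grey) and 3 IRF4-overexpressing (red) libraries, with bars at the means. The red points of WARS1 sit slightly below the grey ones (176 against 194 CPM on average), while those of the other 6 genes sit above.

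Among the 18 cytosolic genes without WARS1, most values were below 0 but none passed edgeR's test. Log2 fold changes were below 0 for 12 and above 0 for 6, with a median of -0.14 against 0.01 over all genes tested and 49.0% of all genes below 0. The groups did not overlap for 8 of the 18, all lower, against 11.9% of all genes lower without overlap, and 0 were higher, against 13.5%. The 8 were CARS1, EPRS1, FARSB, GARS1, HARS1, MARS1, QARS1 and YARS1. Summed over the 18 genes, control replicates 1, 2 and 3 had 6835, 6754 and 6687 CPM and IRF4-overexpressing ones 5945, 6123 and 6092 CPM, which did not overlap. The level of the genes moved with this: 16 of the 18 had a mean of 100 to 1000 CPM, all but CARS1 and HARS1. Over all 2565 genes of that range the median log2 fold change was -0.09, 23.6% were lower without overlap, and the sum was 0.919 of its control level. The 16 cytosolic genes in it had a median of -0.10, 37.5% lower without overlap and a sum of 0.896 of control. The part of the abundance class in the cytosolic values was not tested.

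GARS1, the glycine enzyme gene for both compartments, came nearest to passing. It was at 708, 724 and 742 CPM in the controls and at 597, 522 and 547 CPM with IRF4. The IRF4-overexpressing libraries were all lower, at 0.766 of the control level (95% interval 0.664 to 0.885). On the log2 scale this was -0.38 (SE 0.09), with an adjusted p of 0.0781 by edgeR. By DESeq2 it was -0.40 and passed (adjusted p = 0.00975). It was -0.42 and -0.26 within the first and second sides of the library axis. With a term for the axis it passed edgeR's test (-0.35, adjusted p = 0.0186), a value made too small by reading the sides from the same counts. It also passed when IRF4-overexpressing replicate 1 was left out (-0.45, edgeR adjusted p = 0.00151). Leaving out any other library gave -0.33 to -0.41 and no call.

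YARS1 and QARS1, the tyrosine and glutamine genes, were lower mainly in 2 of the 3 IRF4-overexpressing libraries. YARS1 was at 469, 547 and 552 CPM in the controls and at 468, 320.5 and 343 CPM with IRF4 (log2 fold change -0.47, SE 0.16, edgeR adjusted p = 0.189). QARS1 was at 358, 399 and 388 CPM in the controls and at 350.4, 266 and 240 CPM with IRF4 (-0.42, SE 0.15, edgeR adjusted p = 0.203). In both genes IRF4-overexpressing replicate 1 lay just under the lowest control, which was control replicate 1. Within the first side of the axis they differed by -0.51 each, and within the second by -0.20 and -0.13. The gene span of YARS1 overlaps S100PBP in RefSeq, and the counting of shared reads is not known.

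AARS1 and VARS1, the alanine and valine genes, were the most uneven and followed the library axis. AARS1 is named for its values after they were seen. It was at 264, 349 and 354 CPM in the controls and at 314, 135 and 138 CPM with IRF4. VARS1 was at 161, 247 and 231 CPM in the controls and at 217, 123 and 118 CPM with IRF4. In both, IRF4-overexpressing replicate 1 lay among the controls, while replicates 2 and 3 were below them all. Their log2 fold changes were -0.72 and -0.48 (SE 0.34 and 0.27, edgeR adjusted p = 0.288 and 0.344). They were -0.96 and -0.43 within the first side but -0.13 and -0.10 within the second. Without IRF4-overexpressing replicate 1 they became -1.25 and -0.83. Leaving that library out leaves both remaining IRF4-overexpressing libraries on the side of control replicate 1, so those values mix the group with the axis.

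The remaining genes lower in every IRF4-overexpressing library moved by less. FARSB, a subunit of the phenylalanine enzyme, was at 179, 167 and 172 CPM in the controls and at 161, 141 and 142 CPM with IRF4 (log2 fold change -0.22, edgeR adjusted p = 0.252). FARSA, the gene of the other subunit, was at 117, 153 and 126 CPM and at 124, 141 and 145 CPM, with overlapping groups and a log2 fold change of 0.04. The 2 subunit genes therefore had values of opposite sign, and the difference between them was not tested. HARS1, the histidine gene, was at 102, 107 and 108 CPM against 96.0, 91.9 and 86.5 CPM (-0.21). EPRS1, the glutamate and proline gene, was at 1090, 973 and 976 CPM against 854, 907 and 875 CPM (-0.21), and CARS1, the cysteine gene, at 58.3, 56.4 and 55.8 CPM against 53.7, 52.2 and 50.1 CPM (-0.13). MARS1, the methionine gene, was at 0.904 of its control level (95% interval 0.796 to 1.03). Its span overlaps DDIT3 and ARHGAP9 in RefSeq.

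The other cytosolic genes had values near or above 0 and overlapping groups. KARS1, the lysine gene for both compartments, was at 469, 443 and 443 CPM in the controls and at 383, 487 and 469 CPM with IRF4 (log2 fold change -0.02, edgeR adjusted p = 0.933). RARS1, the arginine gene, is named after its values were seen, as the highest cytosolic value. It was at 219, 185 and 175 CPM against 158, 238 and 249 CPM (0.16, edgeR adjusted p = 0.614). IRF4-overexpressing replicate 1 was lowest in both genes and replicates 2 and 3 were above the highest control. SARS1, LARS1, IARS1, NARS1 and TARS1, for serine, leucine, isoleucine, asparagine and threonine, lay between -0.04 and 0.11.

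The 7 listed enzymes of the multisynthetase complex (EPRS1, IARS1, KARS1, LARS1, MARS1, QARS1 and RARS1) had a median log2 fold change of -0.02. The 11 cytosolic genes outside it had a median of -0.21. With the axis term the medians were -0.09 for the complex genes and -0.18 for the others. Within the first side they were -0.01 and -0.20, and within the second side -0.13 and -0.13. Of the complex genes 3 of 7 were lower without overlap, and of the others 5 of 11, against 11.9% of all genes. The difference between these groups was not tested. The scaffold genes AIMP1, AIMP2 and EEF1E1 had log2 fold changes of 0.05, 0.11 and 0.21, and none passed.

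**Figure D3:**
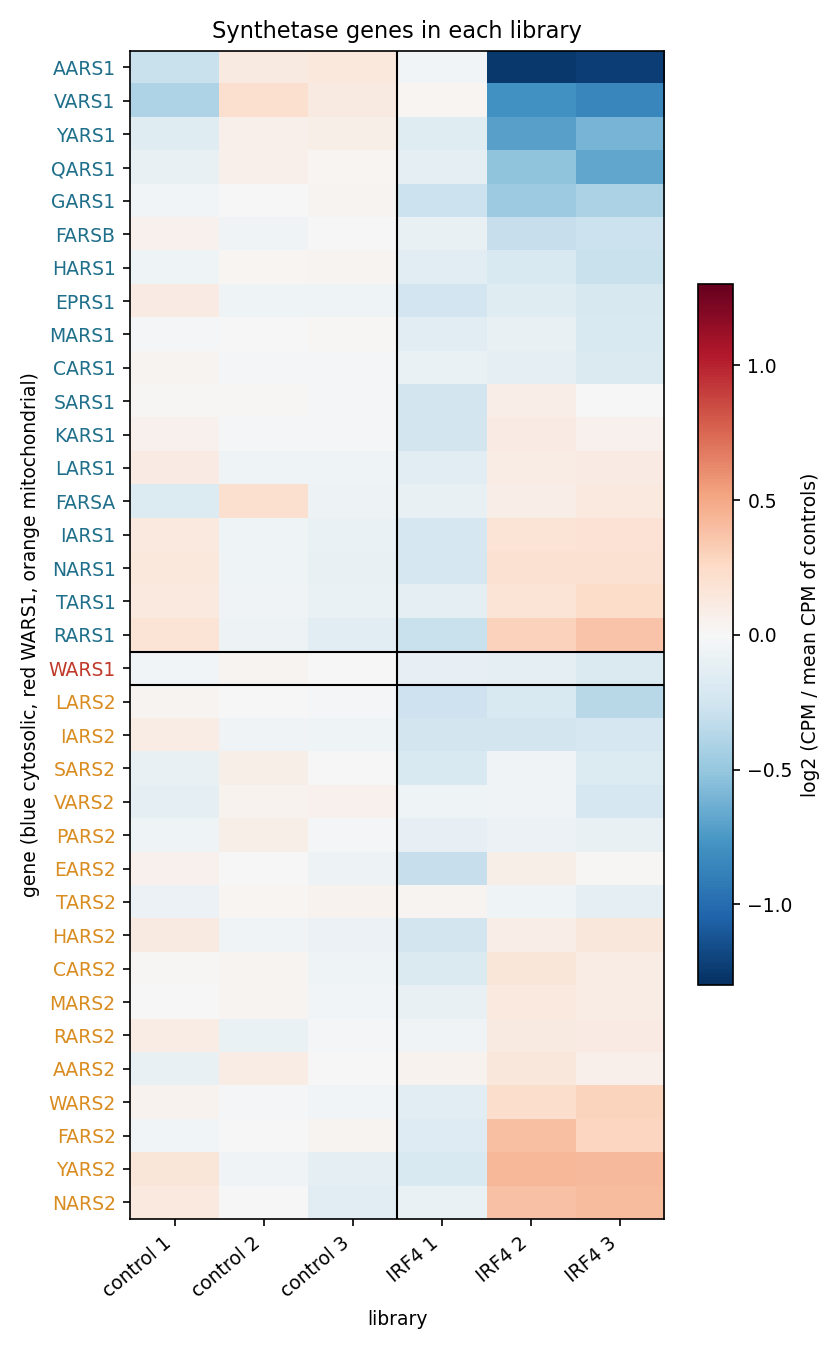
Level of each synthetase gene in each of the 6 libraries, as log2 of its CPM over the mean CPM of the controls (colour), with cytosolic genes at the top, WARS1 apart and mitochondrial genes below. AARS1, VARS1, YARS1 and QARS1 are darkest blue in IRF4-overexpressing replicates 2 and 3, where RARS1, YARS2 and NARS2 are red, while replicate 1 is paler.

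The 16 mitochondrial genes showed no shared direction. Log2 fold changes were below 0 for 7 and above 0 for 9, with a median of 0.02, close to the 0.01 of all genes tested. The groups did not overlap for 3 of the 16 (IARS2, LARS2 and PARS2), all lower, against 11.9% of all genes, and 0 were higher, against 13.5%. Summed over the 16 genes, the controls had 1447, 1396 and 1365 CPM and the IRF4-overexpressing libraries 1242, 1398 and 1363 CPM, with overlap. Of the mitochondrial genes, 13 had means of 10 to 100 CPM, where the median over all 6010 genes was -0.01 and that of the 13 was 0.04.

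LARS2 and IARS2, for mitochondrial leucine and isoleucine, had the smallest p of these genes and were lower in all 3 IRF4-overexpressing libraries. LARS2 was at 188, 183 and 180.0 CPM in the controls and at 152, 160 and 143 CPM with IRF4. That is 0.825 of the control level (95% interval 0.718 to 0.947, log2 fold change -0.28, edgeR adjusted p = 0.154). IARS2 was at 424, 382 and 380.2 CPM against 334, 336 and 340.1 CPM, or 0.852 of control (0.743 to 0.976, log2 fold change -0.23, edgeR adjusted p = 0.203). Neither passed by DESeq2 (adjusted p = 0.061 and 0.126), and both passed with the axis term (edgeR adjusted p = 0.0462 and 0.0415). With that term 2 mitochondrial and 3 cytosolic genes (EPRS1, GARS1 and YARS1) were called lower and 0 higher, against 3.22% and 5.87% of all genes. The cytosolic partners LARS1 and IARS1 had log2 fold changes of 0.03 and 0.06. The smaller number of mitochondrial genes at 100 to 1000 CPM, 3 with EARS2, had a median of -0.23 beside -0.09 for that whole range.

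NARS2 and YARS2, for mitochondrial asparagine and tyrosine, had the highest log2 fold changes of the family. NARS2 was at 69.6, 64.1 and 58.0 CPM in the controls and at 60.2, 83.2 and 85.0 CPM with IRF4 (log2 fold change 0.25, SE 0.15, edgeR adjusted p = 0.364). YARS2 was at 65.8, 57.3 and 54.4 CPM against 51.4, 79.6 and 79.2 CPM (0.24, SE 0.18, edgeR adjusted p = 0.439). In both, replicates 2 and 3 were above all controls and replicate 1 was below 2 of the 3 controls or below all of them. FARS2, for phenylalanine, had the same order, at 16.1, 16.4 and 16.9 CPM against 14.6, 21.6 and 19.9 CPM (0.19). Without IRF4-overexpressing replicate 1 the 3 passed as higher (0.39, 0.41 and 0.32, edgeR adjusted p = 0.0088, 0.00744 and 0.0234), as did WARS2 (0.25). In that fit, which again mixes group and axis, 19.9% of all genes were called higher and 25.1% lower. Within the first side NARS2, YARS2 and FARS2 were at 0.26, 0.26 and 0.36, and within the second side at 0.02, -0.08 and -0.15.

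The remaining mitochondrial genes stayed close to their control levels. SARS2, for serine, was at 31.2, 35.3 and 33.6 CPM in the controls and at 29.2, 32.4 and 29.5 CPM with IRF4 (log2 fold change -0.14). CARS2, for cysteine, was at 94.6, 96.5 and 90.6 CPM against 82.6, 105 and 100.4 CPM (0.03), and AARS2, for alanine, at 38.5, 44.1 and 40.9 CPM against 42.4, 45.6 and 43.2 CPM (0.09). VARS2, for valine, was at 67.2, 75.2 and 75.7 CPM against 70.1, 70.2 and 62.6 CPM (-0.10). All 4 groups of values overlapped. WARS2, the mitochondrial counterpart of WARS1, had a log2 fold change of 0.14, and PARS2, HARS2, EARS2, TARS2, MARS2 and RARS2 lay between -0.09 and 0.06. EARS2, which holds an ISRE match, was at 0.961 of its control level (95% interval 0.788 to 1.17). The spans of CARS2, EARS2 and FARS2 overlap ING1, GGA2 and LYRM4 in RefSeq, and how shared reads were counted is not known.

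Levels can be compared between genes only per length, so CPM per kilobase of the deposited gene width (RPKM) is used here. The highest cytosolic genes were GARS1 at 264 ± 6.09 RPKM in controls and 202 ± 13.9 with IRF4, EPRS1 at 198 ± 13.1 and 172 ± 5.22, and KARS1 at 176 ± 5.85 and 174 ± 21.6 (SD, n = 3 each). EPRS1 and KARS1 do not differ beyond their spread in the IRF4-overexpressing libraries. NARS1, at 163.6 ± 14.48 RPKM in controls and 172.2 ± 27.05 with IRF4, does not differ from either of them there. The highest mitochondrial gene was IARS2 at 111 ± 6.89 and 94.9 ± 0.861 RPKM, followed by LARS2 at 43.7 ± 0.921 and 36.0 ± 2.03, and CARS2 at 36.1 ± 1.16 and 36.9 ± 4.50. LARS2 and CARS2 did not differ beyond their spread with IRF4, nor did CARS2 and RARS2 (34.1 ± 2.24 and 35.6 ± 2.20 RPKM) in either group. WARS1 was at 57.9 ± 1.54 and 52.5 ± 1.64 RPKM.

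The lowest by the deposited width were VARS1 among the cytosolic genes (7.97 ± 1.70 and 5.72 ± 2.09 RPKM) and VARS2 among the mitochondrial ones (1.93 ± 0.127 and 1.79 ± 0.115 RPKM). Their deposited widths, 26707 and 37702 bases, were 6.19 and 6.23 times the longest annotated transcript, so these 2 levels are understated per length. Divided by that transcript, VARS1 and VARS2 averaged 42.4 and 11.6 CPM per kilobase. On that scale the lowest were CARS1 (9.49) and HARS1 (28.2) among the cytosolic genes and FARS2 (4.53) and PARS2 (10.3) among the mitochondrial ones. By the deposited width, next lowest were CARS1 (18.3 ± 0.421 and 16.7 ± 0.577 RPKM) and HARS1 (25.8 ± 0.865 and 22.3 ± 1.16), then FARS2 (7.66 ± 0.187 and 8.71 ± 1.69) and AARS2 (8.60 ± 0.589 and 9.15 ± 0.352). Width does not enter the fold changes.

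The cytosolic gene was above its mitochondrial counterpart per length in every library for 14 of 15 pairs, 2 of which share FARS2. The exception was cysteine, where CARS1 was at 0.507 ± 0.0153 of CARS2 in controls and 0.460 ± 0.0730 with IRF4 (SD, n = 3 each). The widest pair by the control mean was AARS1 over AARS2, with ratios of 9.59, 11.1 and 12.1 in the controls and 10.4, 4.14 and 4.48 with IRF4. With IRF4 the mean was 6.33 for that pair and 8.60 for FARSA over FARS2. The ratio did not overlap between groups for 4 pairs: lower for MARS1 over MARS2 and NARS1 over NARS2, higher for LARS1 over LARS2 and, by a hair, IARS1 over IARS2. The ratios were not tested, and no share over other gene pairs was taken. For single genes, 11.9% of all genes tested were lower without overlap and 13.5% higher. LARS1 over LARS2 was 1.37 ± 0.0632 in controls and 1.70 ± 0.202 with IRF4. Summed CPM of the cytosolic list over the mitochondrial list was 4.73, 4.84 and 4.90 in controls and 4.79, 4.38 and 4.47 with IRF4, with overlap.

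**Figure D4:**
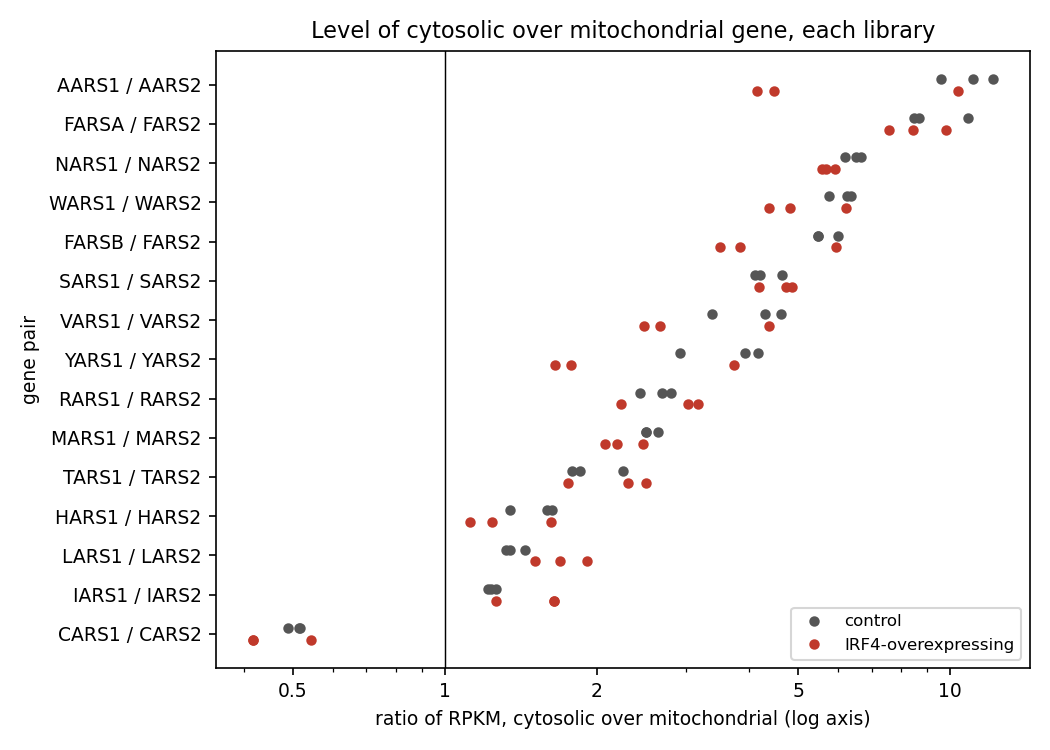
Ratio of RPKM of the cytosolic over the mitochondrial gene of each amino acid (x axis, log scale) in 3 control (grey) and 3 IRF4-overexpressing (red) libraries. Of the 15 pairs 14 lie above 1, and for AARS1 and YARS1 2 red points sit far left of the grey ones; the VARS pair uses widths that exceed the transcripts.

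The spread among libraries of the same group went only in part with the members' base composition. For each gene the mean log2 CPM of the first side was set against the second within each group, and the 2 differences were averaged. This axis value was -0.81 for AARS1, -0.71 for VARS1, -0.36 for YARS1 and -0.31 for QARS1, and 0.45 for RARS1 and 0.43 for YARS2. WARS1 was at -0.05 and GARS1 at -0.11. It ran from -0.81 to 0.45 in the cytosolic list and from -0.12 to 0.43 in the mitochondrial list, against quartiles of -0.27 and 0.21 over all genes tested. Across the 35 members it had a Spearman correlation of -0.60 and a Pearson correlation of -0.58 with the GC content of the longest transcript, and -0.37 and -0.32 across 11789 genes. The genes share the same 6 libraries, so this is a description. The relation was loose. VARS1 had 62.6% GC, but SARS2, FARSA and AARS2, at 61.2%, 60.3% and 59.3%, had axis values of -0.03, -0.02 and -0.04. AARS1, the lowest, had 53.5% GC. Outside the family, the ATF4 targets PSAT1 and MTHFD2, at 42.3% and 41.4% GC, were at -0.74 and 0.41. What underlies the axis was not tested. With the log2 fold change the axis value had a Spearman correlation of 0.80 across members and 0.58 across all genes, and 2 of 3 IRF4-overexpressing libraries lie on the first side. The part of the axis in the members' fold changes was not tested beyond the axis term and the values within sides.

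**Figure D5:**
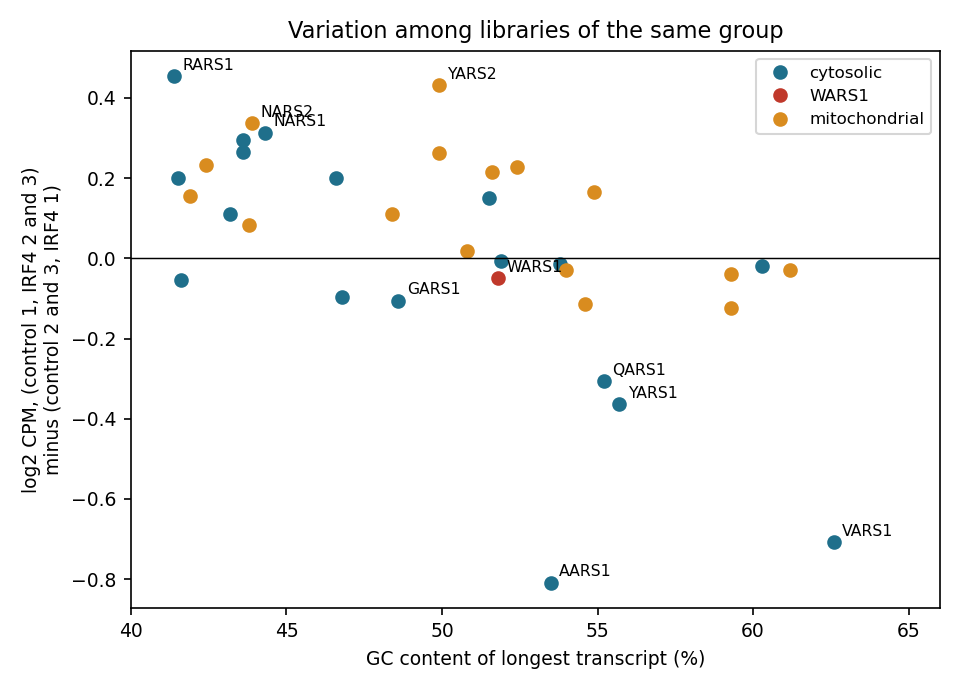
Axis value of each synthetase gene (y axis, log2 CPM difference between library sides within groups) against the GC content of its longest transcript (x axis, percent). AARS1 (-0.81) and VARS1 (-0.71) lie lowest and RARS1 (0.45) and YARS2 (0.43) highest, with WARS1 near 0.

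Within the first side of the axis, 1 control against 2 IRF4-overexpressing libraries, 10 members were lower and 4 higher, against 24.8% and 18.4% of all genes. The lower ones were AARS1, EPRS1, FARSB, GARS1, HARS1, QARS1, VARS1, YARS1, IARS2 and LARS2, and the higher ones FARSA, FARS2, NARS2 and YARS2. Within the second side 3 were lower (GARS1, YARS1 and EARS2) and 0 higher, against 3.28% and 6.99%. On each side one group is a lone library, taken to vary as the others do. The sides were also read from the same counts, which makes p-values within them too small. These calls are therefore a description only. GARS1 was at -0.42 and -0.26 within the first and second sides, and YARS1 at -0.51 and -0.20.

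Partner genes of tRNA charging and delivery did not pass either. Of 20 genes, 0 were higher and 0 lower by edgeR, against 2.98% and 0.182% of all genes. At an unadjusted p under 0.05, 1 was higher, against 11.3%, and 0 lower, against 8.18%. DESeq2 called 0, against 4.78% of all genes higher and 1.45% lower, and limma-voom 0, against 2.81% and 0.182%. Their median log2 fold change was 0.09, against 0.01 over all genes tested. It was -0.03 with the axis term, and 0.09 and -0.08 within the first and second sides. PSTK, a kinase of selenocysteine tRNA synthesis, had the smallest p (log2 fold change 0.56, SE 0.23, edgeR adjusted p = 0.238), followed by DTD1, a proofreading deacylase (0.29, SE 0.12, edgeR adjusted p = 0.259). GATB, GATC and QRSL1, the subunits that make mitochondrial glutamine tRNA, had log2 fold changes of -0.17, 0.18 and 0.21.

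Of 14 tested genes of the ATF4 amino acid stress list, 2 fell and 0 rose, against 0.182% and 2.98% of all genes. Values were below 0 for 13, against 49.0% of all genes, and the median log2 fold change was -0.34 against 0.01. With library sizes alone or the replicate block 0 were called lower, and 1 with median-ratio scaling, with no filter or with a filter of 1 CPM. DESeq2 called 4 lower, against 1.45% of all genes, and limma-voom 2, against 0.182%. With the axis term 5 were called lower, against 3.22%, on p-values made too small by reading the sides from the same counts. ASNS was at 178, 157 and 165 CPM in the controls and at 120, 119 and 118 CPM with IRF4, and fell by 0.49 on the log2 scale (SE 0.09, edgeR adjusted p = 0.0325). CHAC1, a glutathione-degrading enzyme gene, fell by 0.79 (SE 0.16, edgeR adjusted p = 0.0486). Neither passed when any library other than IRF4-overexpressing replicate 1 was left out (edgeR adjusted p of 0.11 to 0.17 for ASNS and 0.0857 to 0.231 for CHAC1). ATF4 itself had a log2 fold change of -0.08 (edgeR adjusted p = 0.628). GARS1 (-0.38), AARS1 (-0.72), IARS1 (0.06) and YARS2 (0.24) share the CARE letters with ASNS and CHAC1 in the windows searched, and their fold changes differed in sign.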

How the data were processed

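The authors deposited 1 table of raw read counts per Entrez gene for 6 RNA-seq libraries of Raji cells, 3 per group, with 1 column per library and 1 width per gene. The values are whole numbers with a different total in each library. Control columns are named WT in the deposited table, and the labels give an empty vector. Per the labels' protocols, libraries were stranded and poly(A)-selected. Per the submitters' processing notes the builds were mm9 and hg19, and the human build was taken to apply. The sources used here name no aligner, counter, annotation or strand setting, so reads of overlapping, antisense or copied genes may be split or shared. Of 23459 rows, 23308 matched a RefSeq symbol (GRCh38.p14), used for names and sequences. All replicate pairs differed beyond sampling noise (chi-square per gene 6.5 to 185).

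The test was edgeR's quasi-likelihood F-test (version 4.0.16, in R 4.3.3; two-sided), after TMM scaling and filterByExpr, with group as the only term, over 12079 genes. Calls were made at a Benjamini-Hochberg adjusted p under 0.05. The SE is the absolute log2 fold change over the root of F, and intervals are at the 95% level. CPM and RPKM use TMM-scaled library sizes and, for RPKM, the deposited width. The script was tested on data simulated for 12079 genes, with known changes in some of them. Of changes of 1.5-fold, 2-fold and 4-fold, 4.5%, 59.7% and 97% passed, and 10 of 117 calls were false. A gene of the interferon list is not reported here and was left out of its counts. Members and lists were chosen with earlier results of these data known. Values per library are given for WARS1, for the 5 members of each list (cytosolic, mitochondrial) with the smallest p, and for the 3 highest and 3 lowest of each in RPKM. From the other lists, called genes or the 2 with the smallest p are named; the remaining values shown were chosen after they were seen. Alternatives tried were a replicate block, a term for the library axis, each side of that axis alone, leaving out each library, DESeq2 1.42.0, limma-voom (limma 3.58.1), scaling by library size or by median ratios, and the filter dropped or set at 1 CPM in 3 libraries. GC content came from the longest GENCODE transcript. Figures were drawn with matplotlib 3.10.9.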

Additional observations from a re-analysis of the deposited data

How the results depend on the processing

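No synthetase gene was called in either direction with limma-voom, the replicate block, either other scaling, either other filter, or without any single library other than IRF4-overexpressing replicate 1. Cytosolic genes called lower numbered 1 with DESeq2, 3 with the axis term, 8 and 2 within the first and second sides of the axis, and 0 to 7 without single libraries. Cytosolic genes called higher numbered 1 within the first side and 0 to 1 without single libraries. Mitochondrial genes called lower numbered 2 with the axis term, 2 and 1 within the sides and 0 to 2 without single libraries. Mitochondrial genes called higher numbered 3 within the first side and 0 to 4 without single libraries. Partner genes called higher numbered 7 within the first side and 0 to 9 without single libraries, and lower ones 3 and 1 within the sides and 0 to 2 without single libraries. The highest of each of these ranges came when IRF4-overexpressing replicate 1 was left out, where group and axis are mixed. There 19.9% of all genes were called higher and 25.1% lower. Calls within the sides rest on p-values made too small by reading the sides from the same counts.

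With library sizes alone the median log2 fold change was -0.043 for the cytosolic and 0.117 for the mitochondrial genes, beside 0.103 for all genes. Within the second side the mitochondrial median was -0.091, and the cause was not tested. WARS1 and IRF4 kept their direction and their side of the threshold in all 16 alternative fits. The replicate numbers do not pair the libraries: deviations of same-numbered libraries had correlations of -0.649, -0.219 and -0.467, and no library correlated best with its own number. With the replicate block, 0 cytosolic, 0 mitochondrial and 0 partner genes were called, as were 0 genes of the interferon and stress lists, and 3 genes in all. For the 18 other members named by the rule, 257 of 288 values stayed on their side of the threshold, 31 passed it and 0 called values changed sign. Values of 4 of them changed sign in 10 fits that called them in neither case. AARS1, RARS1 and FARSA are not in that tally. AARS1 passed within the first side and without IRF4-overexpressing replicate 1, RARS1 in the latter (0.33) and FARSA in the former (0.27), and RARS1 was at -0.16, not called, within the second side.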
